A study of Mus musculus with 2 samples.

Results

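Gm26809 and Gm26905 are mouse long intergenic non-coding RNAs (lncRNAs) that ranked among the 5 most abundant known lncRNAs of liver in both diets. These 2 of the 614 known lncRNAs were chosen by their Ensembl gene identifiers, with earlier values of their abundance in view, so their levels and ratios are given as a description and not as a test. The 272 lncRNAs of a separate table carry numbers in place of names, and 1 of them, lnc_279, is set beside Gm26809. Total RNA of liver was sequenced from wild-type C57BL/6 mice at postnatal week 27. One library, called HFD, came from a sample given a high fat diet with 60% fat for 23 weeks, and 1 library, called ND, came from a sample on a normal diet. The labels name the cells as hepatocytes, but the protocol describes whole liver, and they do not say whether animals were pooled. Since each diet has 1 library, no diet effect can be tested, and every interval given covers counting error only. In tissue RNA, fewer cells of a type and less RNA per cell cannot be told apart.

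LncRNAs are transcripts that are not translated into long proteins, and many of them contain sequence left by transposable elements. LINE-1 elements are an abundant and still active family of retrotransposons in the mouse genome. They spread by reverse transcription of their own RNA, so many near-identical copies lie in genes, introns and between genes. A read from such a sequence can match many places, and which gene it is counted for depends on how the counting treats multiple matches, which the sources used here do not give.

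Gm26809 (ENSMUSG00000097815) lies at chr6:18844220-18847360 on the plus strand (GENCODE M21, GRCm38) and has 3 exons of 179, 894 and 1908 bases, 2981 in all. It shares 855 exon bases with Gm20186, a lincRNA on the opposite strand, and ends 1219 bases before Lsm8, which encodes a subunit of the ring that binds spliceosomal RNA. No exon base overlaps an exon of a coding gene. The third exon holds 5 consecutive units of 38 bases each, from transcript position 2744 to 2933. They are shown because the last 303 bases of Gm26809, which hold them, had no near-identical copy in another annotated gene. Capitals mark letters that match, on the opposite strand, an 11-base consensus of box B with 1 free base, an internal promoter element of tRNA genes that becomes part of the T arm.
Unit 1: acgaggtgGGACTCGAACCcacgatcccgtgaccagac
Unit 2: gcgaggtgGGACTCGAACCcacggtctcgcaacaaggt
Unit 3: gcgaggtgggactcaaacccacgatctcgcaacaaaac
Unit 4: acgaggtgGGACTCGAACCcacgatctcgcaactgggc
Unit 5: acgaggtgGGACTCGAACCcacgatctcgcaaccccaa

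The box B consensus was searched on both strands. Gm26809 matched it 4 times, all on the opposite strand, and unit 3 did not match. Gm26905 matched it on neither strand. Of 606 known lncRNAs with a sequence, 4 (0.660%) held the motif anywhere, and 3 of 6187 windows of 190 bases over their transcripts (0.0485%) did. The other lncRNAs with the motif were 6230400D17Rik, with 740 reads in the HFD library against 726 in the ND library, Gm26885, with 320 against 348, and 4921507G05Rik, with 2 against 6. Holding the motif thus went with very different read numbers. The match is a description of the letters and shows nothing about a factor.

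Gm26905 (ENSMUSG00000097695) lies at chr8:58171435-58298866 on the plus strand and has 3 exons of 21, 5998 and 602 bases, 6621 in all. The gene sits inside Galntl6, a GalNAc transferase family gene on the opposite strand, but all of its exons fall in introns, and it shares 0 bases with coding exons. Read on the opposite strand, Gm26905 held an open frame of 1300 codons (transcript positions 724 to 4623) next to one of 379 codons (4610 to 5746). On its own strand the longest frame had 183 codons. Read in that direction, the shorter frame comes first and the longer one follows, which is the layout of a LINE-1 element, whose ORF2 encodes the endonuclease and reverse transcriptase and whose ORF1 encodes an RNA-binding protein. Near its 3′ end, Gm26905 also repeated itself, with 539 aligned bases at 94.1% identity and an offset of 199 bases. Gm26809 had no frame above 123 codons on either strand.

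The most copied stretch of Gm26905 is shown with its counterparts in 3 other genes because more genes held a copy of it than of the rest of the transcript. It spans chr8:58292981-58293100 (GRCm38, plus strand), at transcript positions 941 to 1060, and on average 54.7 other genes had a copy of each base there. 4930533N22Rik (chromosome 7) is a lncRNA listed in the same table, and Gm47356 and Gm48270 (both chromosome 10) are annotated as processed pseudogenes and are aligned by their opposite strand. Capitals mark the positions where another gene differs from Gm26905.
Gm26905: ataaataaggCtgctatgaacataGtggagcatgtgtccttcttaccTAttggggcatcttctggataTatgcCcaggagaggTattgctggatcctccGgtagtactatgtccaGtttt
4930533N22Rik: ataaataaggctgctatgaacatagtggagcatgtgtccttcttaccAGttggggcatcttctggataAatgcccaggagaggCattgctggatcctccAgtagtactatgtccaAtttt
Gm47356: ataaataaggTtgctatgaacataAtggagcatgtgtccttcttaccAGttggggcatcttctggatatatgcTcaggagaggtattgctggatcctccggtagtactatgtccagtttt
Gm48270: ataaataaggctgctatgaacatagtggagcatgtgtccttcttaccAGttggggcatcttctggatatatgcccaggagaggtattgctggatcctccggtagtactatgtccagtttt

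In these 120 bases, 4930533N22Rik differed from Gm26905 at 6 positions, Gm47356 at 5 and Gm48270 at 2. No base of Gm26809 had a copy in more than 1 other gene, so it has no most copied stretch. A stretch of 120 bases shared with Gm12840 (chromosome 4) differed at 1 position and is not shown. The one shown is shared with Gm29408 (chromosome 9), a lncRNA of the table. It lies at chr6:18846850-18846969 (GRCm38, plus strand) and differed at 3 positions, again in capitals.
Gm26809: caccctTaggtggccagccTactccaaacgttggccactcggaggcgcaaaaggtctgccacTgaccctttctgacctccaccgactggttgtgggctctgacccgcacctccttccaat
Gm29408: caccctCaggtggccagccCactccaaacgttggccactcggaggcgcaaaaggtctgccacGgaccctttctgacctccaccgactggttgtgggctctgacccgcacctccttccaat

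Copies were counted as other annotated genes, away from the locus itself, with a transcript stretch of at least 50 bases at 95% identity or more. Gm26905 had such a copy in 203 genes on 21 chromosomes, and 6593 of its 6621 bases (99.6%) were copied at least once. The genes comprised 72 coding genes, 49 processed pseudogenes, 30 genes of the provisional TEC class, 17 lincRNAs and other classes. In 114 genes the copy ran in the opposite orientation and in 90 in the same one, with 1 gene in both sets. The longest copy, in the antisense lncRNA Gm47578 on chromosome 10, covered 6047 aligned bases at 99.2% identity. In 48 genes the copy was at least 1000 bases long.

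Gm26809 had far fewer copies, in 4 genes only, so that for it the description as multi-copy rests on a few genes and on its own tandem units. These were AC160336.1 (chromosome 14, 1184 bases at 95%), Gm12840 (chromosome 4, 513 bases at 97.1%), Gm29408 (216 bases at 98.1%) and the olfactory receptor gene Olfr1033 (chromosome 2, 158 bases at 96.2%). They covered 2182 bases (73.2%) and left 799 without a copy. Copies outside annotated transcripts were not analysed here, so these numbers are lower limits for the genome. Among the 606 lncRNAs, 49 had copies in more genes than Gm26905 and 197 in more than Gm26809, while the median lncRNA had 0.

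**Figure D1:**
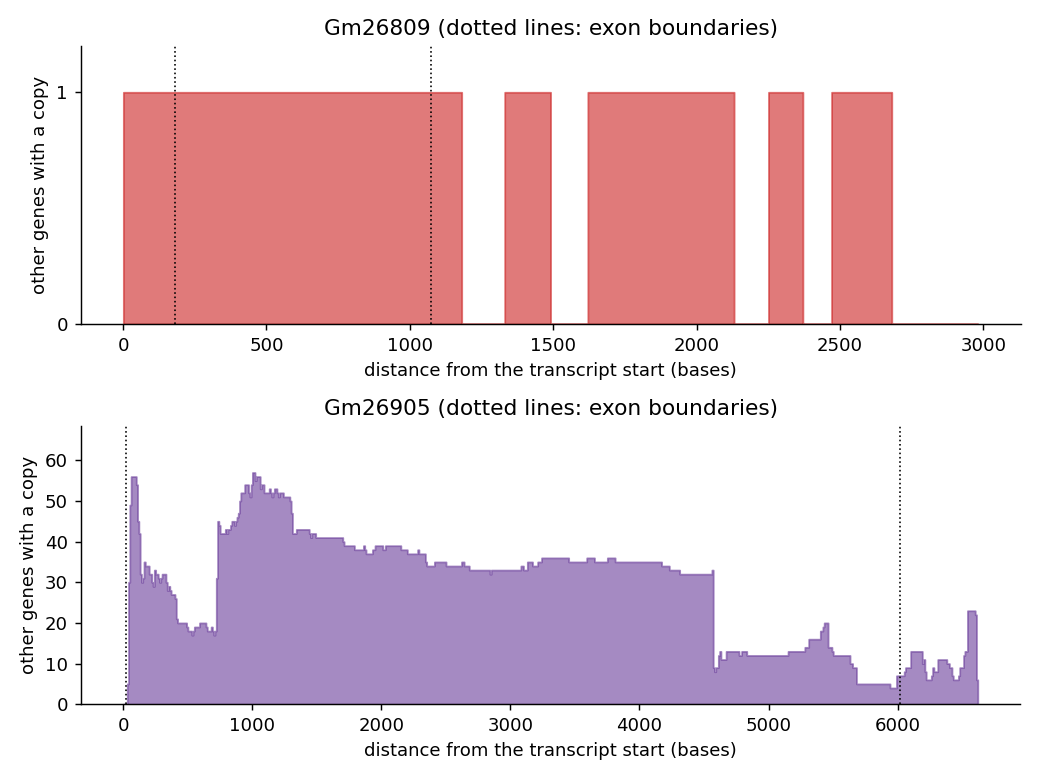
Number of other annotated genes with a near-identical copy (vertical axis) along the transcripts of Gm26809 and Gm26905 (horizontal axis, bases from the transcript start), with dotted lines at exon boundaries. No base of Gm26809 was copied in more than 1 other gene, whereas Gm26905 reached 57 genes at a base, with higher numbers over the long open frame of its opposite strand than in its 3′ part.

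Levels are given in reads, recovered from the deposited CPM (reads per 1000000 reads of the table), and as shares of the read pairs of the known table. Gm26809 had 15728 reads in the HFD library, against 22798 in the ND library. Its share of the table's pairs was 8.13% (7.96 to 8.30, 95% by Clopper-Pearson) in the HFD library and 9.41% (9.25 to 9.58) in the ND library. Gm26905 had 13170 reads in the HFD library, against 18706 in the ND library. Its share was 6.80% (6.65 to 6.97) in the HFD library and 7.72% (7.57 to 7.88) in the ND library. Together, 14.9% (14.7 to 15.2) of the known-table pairs in HFD and 17.1% (16.9 to 17.4) in ND were counted for these genes. Both shares were smaller in the HFD library, and the intervals of the libraries did not overlap.

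In the order of reads, Gm26809 stood at position 3 in the HFD library and 2 in the ND library, and Gm26905 at 4 and 3. Above both in each library was Gm30097, at 10.96% in the HFD library and 9.77% in the ND library. In the ND library the intervals of Gm30097 (9.60 to 9.94) and Gm26809 (9.25 to 9.58) came close without overlapping. 1810014B01Rik stood above Gm26809 in the HFD library, at 9.97%, but below both genes in the ND library, at 6.32%. Gm26697 followed Gm26905 with 6.08% in the HFD library and 7.39% in the ND library. Gm26584, with a copy in 306 other genes, stood at 6 in the ND library (11208 reads, 4.63%). In the HFD library it stood at 20 (1660 reads, 0.858%). The order of abundant lncRNAs therefore differed between the libraries, mainly through 1810014B01Rik and Gm26584.

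**Figure D2:**
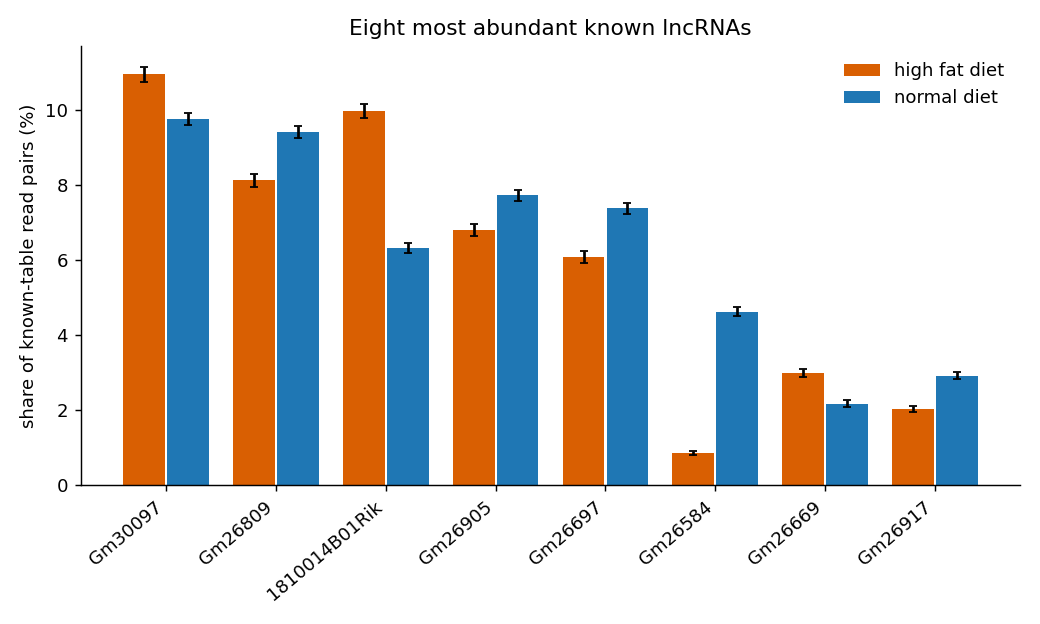
Share of known-table read pairs in percent (vertical axis) of the 8 most abundant known lncRNAs, with the HFD library left of the ND library. Bars are single libraries and error lines are 95% Clopper-Pearson intervals, which cover counting error only. Gm26809 and Gm26905 had the lower share in the HFD library, like Gm26697, Gm26584 and Gm26917. Gm30097, 1810014B01Rik and Gm26669 had the higher one. The largest difference was that of Gm26584, with 0.858% in the HFD library and 4.63% in the ND library.

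Since Gm26905 is longer, levels were also compared per kilobase of exon. Gm26809 had 5276 reads per kb in the HFD library and 7648 in the ND library, which placed it 4th and 3rd of 606. Gm26905 had 1989 and 2825 reads per kb in the HFD and ND libraries and was 8th and 7th. The median known lncRNA had 16.8 reads per kb in the HFD library and 19.8 in the ND library, so Gm26809 lay 315 and 387 times above it and Gm26905 119 and 143 times. Per length, Gm26809 was well above Gm26905 in both libraries.

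Gm26809 and Gm26905 also differ from several abundant lncRNAs in sharing no base with coding exons. Among the 372 known lncRNAs with no base in a coding gene's exon on either strand, these genes ranked first and second in both libraries, by reads and by reads per kb. Together they held 47.7% of the reads of this class in the HFD library and 51.2% in the ND library. Next by reads was Gm26917, with 3918 reads in the HFD library and 7062 in the ND library. By reads per kb, Gm26880 followed in the HFD library with 1886 and Gm26917 in the ND library with 2121. The median of the class was 7.82 reads per kb in the HFD library and 10.3 in the ND library.

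Between the libraries, Gm26809 had a log2 ratio of CPM (high fat diet over normal diet) of -0.21 (95% interval -0.25 to -0.17) and Gm26905 one of -0.18 (-0.23 to -0.14). Both intervals lay below 0, but they hold no spread between animals. The authors' deposited table gives folds of 0.863 for Gm26809 and 0.881 for Gm26905 with p-values of 2.44e-26 and 1.42e-16 (adjusted, 9.45e-25 and 3.88e-15), again from 1 library per diet. Neither gene reached 2-fold. With a minimum of 20 reads in whichever library was higher, 58 of 364 known lncRNAs (15.9%) were at least 2-fold apart, of which 28 (7.69%) were higher and 30 (8.24%) lower in HFD. Of the 66 known lncRNAs with at least 1000 reads over both libraries, 43 had an interval that excluded 0, the median log2 ratio was 0.02, and the quartiles were -0.18 and 0.32. In this set 14 lncRNAs had a lower ratio than Gm26809 and 17 a lower one than Gm26905, which puts both near the lower quartile.

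**Figure D3:**
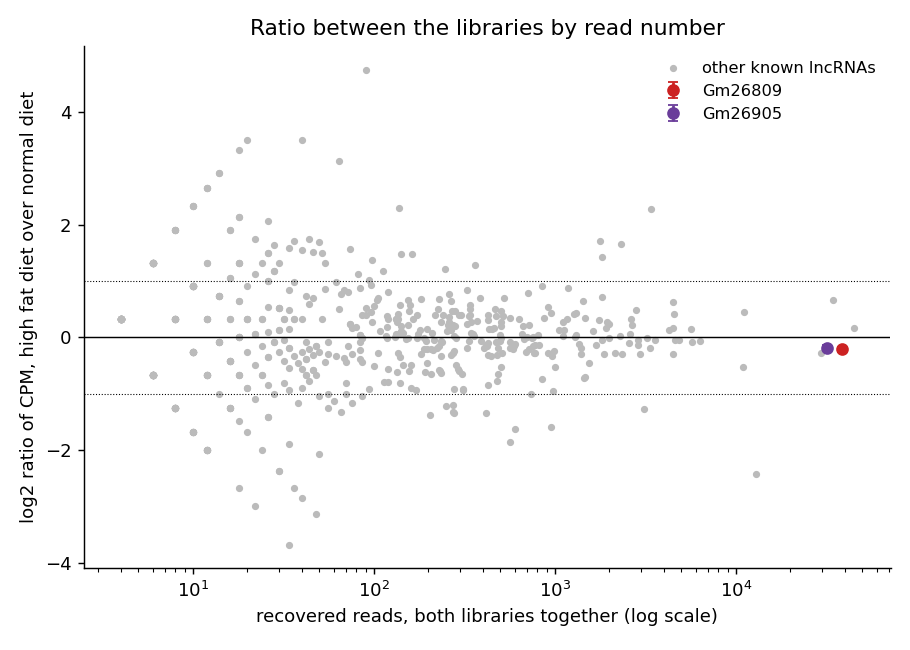
Log2 ratio of CPM, high fat diet over normal diet (vertical axis), against recovered reads of both libraries (horizontal log axis) for each known lncRNA with reads in both. Dotted lines mark 2-fold and vertical lines the 95% counting intervals of the named genes, which are smaller than their points. Gm26809 at -0.21 and Gm26905 at -0.18 lie just below 0 at the far right.

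The ratio of Gm26809 to Gm26905 within a library needs no scaling. It was 1.19 (95% interval 1.16 to 1.23) in the HFD library and 1.22 (1.19 to 1.25) in the ND library. The change of this ratio was -0.03 on the log2 scale, with an exact conditional interval of -0.09 to 0.03. Against Gm26697 the changes were slightly positive, at 0.07 (0.00 to 0.13) for Gm26809 and 0.10 (0.03 to 0.16) for Gm26905. Against 1810014B01Rik they were -0.87 (-0.93 to -0.81) and -0.84 (-0.90 to -0.78), and against Gm30097 -0.38 (-0.43 to -0.32) and -0.35 (-0.41 to -0.29). Gm26809 and Gm26905 thus kept nearly the same proportion to each other, and nearly so to Gm26697. Their proportion to 1810014B01Rik and Gm30097 differed more between the libraries. The largest changes were against Gm26584, at 2.22 (2.11 to 2.33) for Gm26809 and 2.25 (2.13 to 2.37) for Gm26905. Gm26584 itself had a log2 ratio of -2.43 (-2.54 to -2.33). Against Gm26669 the changes were -0.67 (-0.76 to -0.58) and -0.64 (-0.73 to -0.55). Against Gm26917 they were 0.31 (0.22 to 0.41) and 0.34 (0.25 to 0.44).

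Likeness was taken as the absolute difference of the log2 ratios over the 2 libraries, among lncRNAs with at least 1000 reads in all. The lncRNAs nearest to Gm26809 were Gm26518 (-0.19), 2810425M01Rik (-0.19), Gm26905, 4932422M17Rik (-0.27) and Gm26697 (-0.28). Those nearest to Gm26905 were 2810425M01Rik, Gm26518, Gm26809, A230087F16Rik (-0.14) and Gm10532 (-0.13). Every difference was at most 0.07, and with 2 libraries such likeness is a single number per gene.

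Lnc_279 had 15738 reads in the HFD library and 22804 in the ND library. These exceed the reads of Gm26809 by 10 in the HFD library and by 6 in the ND library, or by 0.0635% and 0.0263%. By the larger of its differences in the libraries, the next closest known lncRNA was Gm26905, up to 18% away. In the ND library alone Gm30097 was closer, with 23656 reads, but in the HFD library its 21208 reads were 34.8% away. In its own table lnc_279 was by far the most abundant, since the next lncRNA had 490 reads in the HFD library (lnc_251) and 974 in the ND library (lnc_736), 32.1 and 23.4 times fewer. Matching reads were not particular to lnc_279. Lnc_736 had 474 reads in HFD and 974 in ND, the same as the known C330002G04Rik. Lnc_251 had 490 and 424, the same as Gm26981, and lnc_535 had 336 and 418, the same as 2310015A10Rik. Whether the tables count the same reads was not tested. Neither a position nor a sequence of lnc_279 is given in the files used here, so whether it is the same transcript as Gm26809 was not tested.

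Although the reads were nearly equal, the ratios of the deposited values differ between the tables. Lnc_279 held 62.3% (61.4 to 63.1) of the numbered-table pairs in the HFD library and 62.2% (61.5 to 63.0) in the ND library, and had a log2 ratio of 0.00 (-0.04 to 0.04), against -0.21 for Gm26809. Past 2-fold by the same rule were 42 of 117 numbered lncRNAs (35.9%), with 19 higher (16.2%) and 23 lower (19.7%), lnc_279 not among them. Unscaled, lnc_279 and Gm26809 had log2 ratios of reads of -0.54. The total behind the known table's scaling was 193538 reads in the HFD library and 242194 in the ND library, a log2 ratio of -0.32. The total behind the numbered table's scaling was 25270 and 36634 reads, a log2 ratio of -0.54. Without lnc_279 the numbered table's total was 9532 and 13830 reads, again a log2 ratio of -0.54, and lnc_279 set against that remainder still had a ratio of 0.00. The remaining numbered lncRNAs thus had, in sum, the same ratio as lnc_279.

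Set against the numbered table's total, Gm26809 had a log2 ratio of 0.00 and Gm26905 of 0.03 (-0.02 to 0.08), a comparison added after the values were seen. Relative to the median of the numbered lncRNAs, by median-of-ratios scaling, lnc_279 was at -0.12 (-0.16 to -0.08). Gm26809 and Gm26905 were therefore lower in HFD relative to the known table's total but not relative to the numbered table's total. Lnc_279, with nearly the reads of Gm26809, was lower relative to the median of those 71 numbered lncRNAs. The total reads of either library were not analysed here, so which scale is closer to the levels per cell was not tested.

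**Figure D4:**
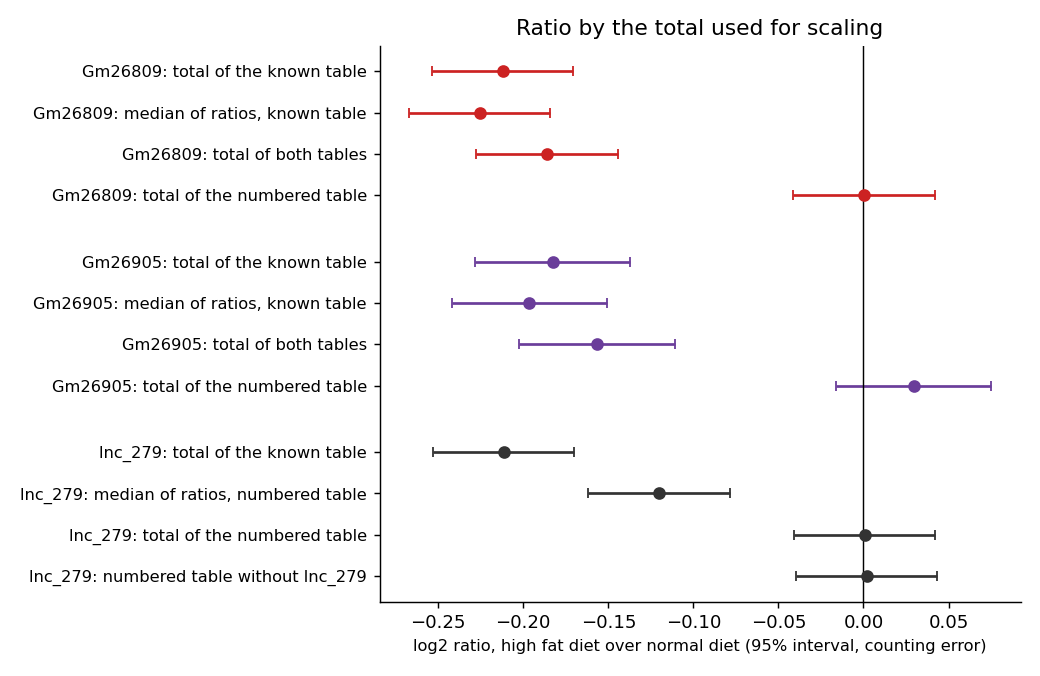
Log2 ratio, high fat diet over normal diet (horizontal axis), of Gm26809, Gm26905 and lnc_279 under different totals (rows), with 95% exact intervals that cover counting error only. Scaled to the known table, the values were -0.21, -0.18 and -0.21, and scaled to the numbered table they were 0.00, 0.03 and 0.00.

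Other lncRNAs of the table share stretches of at least 90% identity with these genes. For Gm26809 there were 4, of which 3 passed the minimum of 20 reads. None of these 3 was 2-fold apart, where 15.9% of all 364 known lncRNAs with that many reads were. Gm20186, which overlaps it on the opposite strand, had 52 reads in the HFD library and 66 in the ND library (log2 ratio -0.02, -0.82 to 0.77). Per kb this is 107 and 122 times less than Gm26809, although the genes share 855 exon bases, with a longest aligned stretch of 600 bases. Gm12840 had 46 reads in the HFD library and 88 in the ND library, and Gm29408, whose whole 216 bases align to Gm26809, had 48 and 112 (log2 ratio -0.90, -1.65 to -0.19). Slmapos2, under the minimum, had 12 and 6 (1.32, -0.90 to 3.95). The 4 listed lncRNAs sharing sequence with Gm26809 thus had at most 52 reads in the HFD library and 112 in the ND library. For AC160336.1 and Olfr1033, which also hold copies, no reads are given. No source used here gives the strand setting, so reads of Gm26809 and Gm20186 in their overlap cannot be told apart.

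For Gm26905, 10 listed lncRNAs shared such stretches, of which 6 passed the minimum of 20 reads, and 1 of these was lower and none higher by 2-fold, against 8.24% lower and 7.69% higher of all 364 known lncRNAs with that many reads. The most abundant was 4930533N22Rik, with 1160 aligned bases at 96.5% identity. It had 1096 reads in the HFD library and 1472 in the ND library, a log2 ratio of -0.10 (-0.26 to 0.06). Gm43042, identical to Gm26905 over 139 bases on the opposite strand, had 170 and 222 reads (-0.06, -0.49 to 0.36). D5Ertd615e was the lncRNA that was lower, with 48 reads in the HFD library against 156 in the ND library (-1.38, -2.10 to -0.70). The remaining 7 had between 2 and 74 reads in the HFD library and between 2 and 102 in the ND library. Levels thus ranged widely among them, and the interval of each but D5Ertd615e overlapped that of Gm26905, several because they rest on few reads.

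Over the whole known table, the number of copies did not go with high levels. The 171 lncRNAs with a copy in 10 or more genes, Gm26905 among them, had a median of 16.9 reads per kb in the HFD library and 21 in the ND library. The 80 with copies in 1 to 9 genes, Gm26809 among them, had 12.4 and 14.9, and the 355 without a copy had 18.3 and 21.6. Among those that passed the minimum of 20 reads, the median log2 ratios were 0.04, -0.01 and -0.04 for the classes in this order. The shares 2-fold apart were 15.0% (9 higher, 8 lower), 17.4% (3 higher, 5 lower) and 16.4% (16 higher, 17 lower), close to the background of 15.9%. The 10 lncRNAs with the most copies, from 905 to 1321 genes, had at most 176 reads in the HFD library and 246 in the ND library, both in Gm10603. Only 5 of these 10 passed the minimum of 20 reads, and none of the 5 was 2-fold apart.

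**Figure D5:**
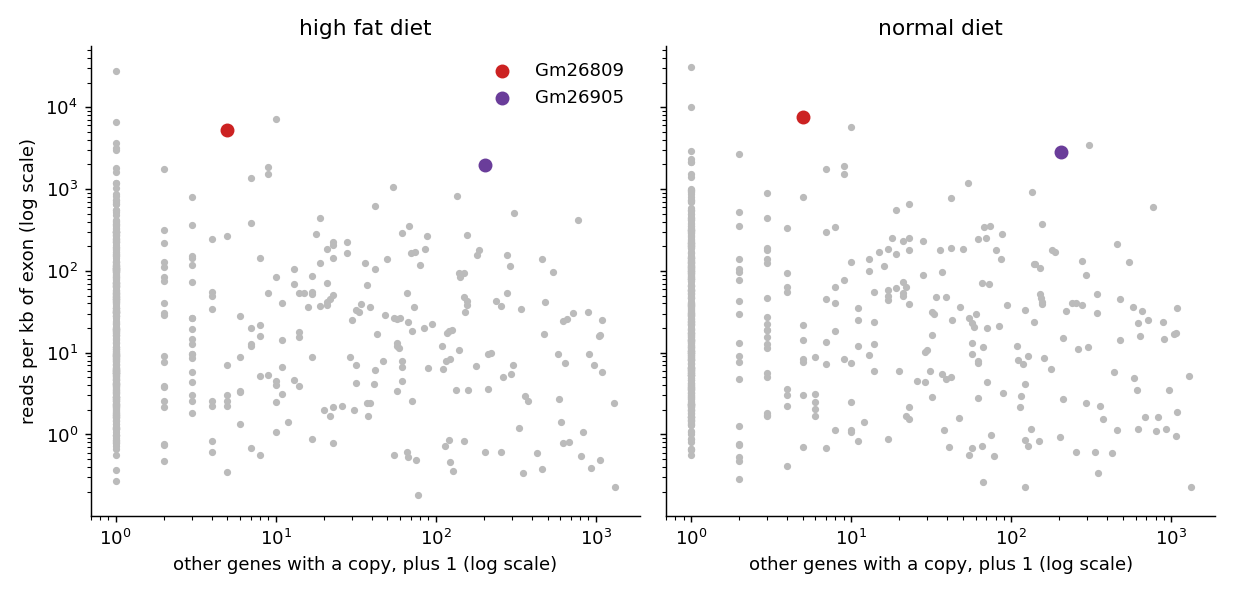
Reads per kb of exon (vertical log axis) against the number of other genes with a near-identical copy plus 1 (horizontal log axis) for known lncRNAs with reads, in the HFD library (left) and the ND library (right). Gm26809 with 4 genes and Gm26905 with 203 genes lie near the top, well above most lncRNAs with as many copies.

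In a list of 26 abundant structural and repeat-related RNAs, 6 were measured, all above the minimum of 20 reads, and none was 2-fold apart, where 15.9% of all known lncRNAs with that many reads were. Beside Gm26809 and Gm26905 these were Gm26917 (log2 ratio -0.53, -0.61 to -0.45), Gm42418, with 566 reads in the HFD library and 976 in the ND library (-0.46, -0.68 to -0.25), Gm26870, with 26 and 42 (-0.37, -1.49 to 0.70), and Gm26699, with 1024 and 1260 (0.02, -0.15 to 0.19). Of 17 nuclear lncRNAs 4 were measured, 3 of them above the minimum, and Neat1, the scaffold of paraspeckles (log2 ratio -1.59, -1.92 to -1.27), and Xist, with 14 reads in HFD and 36 in ND (-1.04, -2.54 to 0.29), were lower by the rule, where 8.24% of all known lncRNAs above the minimum were, and the interval of Xist spans 0. Malat1, with 792 and 630 reads, and Ftx, with 4 and 12, were not called. Of 8 lncRNAs listed for hepatocytes 4 were measured, with 136 reads in sum in the HFD library and 206 in the ND library. The 2 above the minimum differed in direction. Gm10804 had 66 and 126 reads (-0.61, -1.26 to 0.02) and C730036E19Rik 60 and 60 (0.32, -0.46 to 1.10). Under the minimum were 1810008I18Rik, with 8 and 16, and Platr4, with 2 and 4. Of 7 listed for immune cells 2 were measured, with 54 and 90 reads in sum, namely Gm12840 with 46 in HFD and 88 in ND (-0.61, -1.41 to 0.15) and Mir155hg, the host gene of miR-155, with 8 and 2 (2.32, -1.01 to 7.95). None of 8 for endothelial and stellate cells or of 4 for adipocytes was measured. Gm12840 shares sequence with Gm26809, and the part of other cell types in the values of Gm26809 and Gm26905 was not tested.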

How the data were processed

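The build mm8 and the tools HISAT2, HTSeq and DESeq are named, per the submitters' processing notes, without roles or versions. The sources used here give neither the annotation, the strand setting nor the treatment of multiple matches. The 2 deposited tables hold CPM values, which the authors scaled to 1000000 reads per library within each table. Fold changes (high fat diet over normal diet), their log2 values and p-values were deposited too and are quoted as the authors' own.

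Each CPM value was divided by the smallest of its column, taken as 1 read. All values (100%) came out whole within 1e-06, and all but those of 1 read were even, so intervals were computed on pairs of 2 reads. Values of 1 read were set to 0. The totals behind the scaling were 193538 and 242194 reads (known table, high fat and normal diet) and 25270 and 36634 reads (numbered table). The listed reads came to slightly less, 193260 and 241812 (known table) and 25074 and 36376 (numbered table). Shares and log2 ratios used the totals behind the scaling. The median known lncRNA had 24 reads (high fat diet) and 30 (normal diet). Shares have exact Clopper-Pearson 95% intervals, and log2 ratios have exact intervals from the binomial split of the pairs (SciPy 1.17.1). The ratio and interval computation was tested on simulated data. With 1 library per diet no count test is possible.

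Names, exons and transcript sequences are from GENCODE M21 (GRCm38), which matched 606 of 614 identifiers. The files hold no coordinates, so no mm8 position was used. Copies were found with BLAST+ 2.17.0 (megablast, word size 28, no masking of simple sequence) against all GENCODE M21 transcripts. LncRNAs sharing a stretch with Gm26809 or Gm26905 were found with blastn.

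Named lncRNAs are Gm26809, Gm26905 and lnc_279, their neighbours in abundance, the 5 nearest in log2 ratio, those sharing sequence, the 10 with the most copies, and the measured members of lists of structural, nuclear and cell type lncRNAs. The genes and lists were chosen with earlier results of these data known. Alternatives covered scaling, pseudocounts, minimum reads, fold, denominators and the definition of a copy.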

Additional observations from a re-analysis of the deposited data

How the results depend on the processing

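The log2 ratios of Gm26809 and Gm26905 stayed inside their counting intervals under 8 of 9 alternatives each, among them median-of-ratios scaling (-0.23 and -0.20), the total of both tables (-0.19 and -0.16), the total without the 5 most abundant lncRNAs (-0.18 and -0.15) and pseudocounts of 1 and 5 reads. Pseudocounts could barely move ratios at these read numbers, and an interval on single reads left them unchanged by construction. The total of both tables consists mainly of the known table's own total. The count of 8 is therefore no measure of robustness. The exception is the total of the numbered table, chosen after the values were seen, which gave 0.00019 and 0.0295. For lnc_279 the known-table total gave -0.21 and median-of-ratios scaling -0.12, a shift of 0.12 that applies to every numbered lncRNA. The shares depend on the denominator by construction. Without the gene itself they were 8.85% (high fat diet) and 10.4% (normal diet) for Gm26809 and 7.30% and 8.37% for Gm26905. Over both tables together they were 7.19% and 8.18%, and 6.02% and 6.71%. A total over both tables counts any read present in both more than once. Over lncRNAs without overlap with coding exons they were 25.9% and 28.1%, and 21.7% and 23.1%. Known lncRNAs 2-fold apart, 28 higher and 30 lower, came to 78 and 68 with no minimum. They came to 8 and 11 with a minimum of 100 reads, to 58 and 66 at 1.5-fold, and to 6 and 9 at 4-fold. They numbered 27 and 34 with median-of-ratios scaling and 27 and 22 with a pseudocount of 5 reads. Numbered lncRNAs, 19 and 23, numbered 61 and 56 with no minimum and 5 and 7 with 100 reads. At 98% identity over 100 bases, copies were found in 2 genes for Gm26809 and 56 for Gm26905, and 89 lncRNAs had any copy, against 251. At 90% identity Gm26905 had copies in 488 genes. No paired analysis was possible because 1 library stands for each diet. For that reason no replicate could be left out either.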
